A study of Mus musculus with 18 samples.

Results

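Eosinophils are granulocytes best known from allergy and helminth infection, and they also carry receptors for bacterial products. The comparison described here asks which genes differ when *E. coli* is added to mouse eosinophils that receive interferon gamma (IFN-γ). It uses 6 of the 18 samples of the series, the 3 libraries with IFN-γ alone and the 3 with IFN-γ and *E. coli*, chosen by their labels. Each group has 3 libraries, and the unstimulated (a to c) and *E. coli* libraries serve as a second, separate comparison.

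The cells came from the peritoneal cavity of C57BL/6 mice carrying the NJ.1638 IL-5 transgene and were purified by removing cells bound by Thy1.2 and B220 beads. They were cultured for 18 h at 37 °C with IFN-γ at 50 ng/ml, with heat-inactivated *E. coli*, or with both. According to the methods both stimuli were given together, so the *E. coli* libraries with IFN-γ record a combined exposure rather than a pretreatment followed by bacteria. The amount of bacteria is stated without a unit, the ages of the mice are not given, and no live bacteria were used. The study calls the 3 libraries of a group biological replicates. Whether they came from different mice or from different cultures is not stated, so the p-values measure only the spread between samples.

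Lipopolysaccharide of Gram-negative bacteria is sensed by TLR4 with CD14 and MD-2, and signalling through MYD88 and IRAK kinases releases NF-kB, which switches on cytokine and chemokine genes. IFN-γ induces guanylate-binding proteins, antigen presentation and nitric oxide synthase, and in macrophages it strengthens many responses to bacterial products. Negative regulators such as A20, SOCS3 and IRAK3 are induced along the same pathway and limit it.

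The numbers of counts on genes were 1859508, 2006059 and 1654831 with IFN-γ alone and 1523808, 1970637 and 1719468 with both stimuli. At this depth 3 counts correspond to 1.54 to 2.19 CPM (counts scaled to the size and composition of the library). No gene exceeded 4095 counts in any of the 12 libraries. The reason was not tested. Per the methods reads were counted, and whether reads with the same molecular barcode were merged is not stated. If counts are limited at this ceiling, abundant genes are understated, and 152 of the 9883 genes tested had a count over 2048 in at least 1 of the 6 libraries. With counts corrected for this ceiling, the values of the genes named below for *E. coli* added to IFN-γ changed by more than a factor of 1.5 only in *Cxcl2*, *Cxcl3* and *Ly6c2*, and the calls only in *Csf2rb* and *Ly6c2*. Counts from exons overlapping on opposite strands cannot be assigned with certainty, because the strandedness of the counting is not stated.

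In a principal component analysis of the 6 libraries the first component (42.4% of the variance) separated the groups. On the second (27.3%) the libraries with both stimuli lay at -23.4, -12.1 and 34.1 and those with IFN-γ alone at 0.297, -14.5 and 15.6, so IFN-γ + *E. coli* replicate 3 stood apart. This library also had the lowest share of reads outside genes (18.9%, against 32.8% and 29.8% in replicates 1 and 2). With IFN-γ alone the shares were 24.8%, 31.7% and 20.8%. Over all 6 libraries the second component was higher the lower this share, so the pattern was not confined to replicate 3. The reason was not tested. The chi-square per gene between replicates 1 and 2 was 2.66, whereas it was 6.04 between replicates 1 and 3 and 5.02 between replicates 2 and 3. With all libraries 618 genes were higher and 591 lower with both stimuli, and without replicate 3 the counts were 547 and 575, of which 432 and 453 were shared with the full set. List counts moved as well without this library. The number of higher genes was 6 instead of 9 for NRF2 and antioxidant genes and 7 instead of 9 for hypoxia-inducible genes. It was 5 instead of 7 for antimicrobial effectors and for the list named after arginine, tryptophan and itaconate enzymes. Counts of other lists also moved.

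The label of the cells was checked against markers. Summed CPM of 27 eosinophil genes were 14448, 13307 and 16264 with IFN-γ alone and 14539.8, 12482 and 14619 with both stimuli, with *Csf2rb* the most abundant (near the ceiling and with a near-identical copy, *Csf2rb2*; not called, but called higher at 0.49 after the correction). The eotaxin receptor gene *Ccr3* had 1585, 1453 and 1779 CPM against 1665, 1447 and 1489 CPM, and the sialic acid receptor gene *Siglecf* had 654, 534 and 689.9 CPM against 353, 322 and 371 CPM. By contrast, the granule genes *Epx*, *Ear1* and *Ear2* had too few counts to be tested, and *Prg2* had 14.6, 21.02 and 13.7 CPM against 13.9, 13.7 and 12.5 CPM.

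Genes of other cell types were also present. The 20 macrophage and monocyte markers summed to 5948, 5434 and 6176 CPM with IFN-γ alone and 5681, 5772 and 6608 CPM with both stimuli, led by *Ly6c2*, with no marker at 0. *Ly6c2* itself, which has a near-identical copy, came near the ceiling and was not called (0.02), but after the correction it was called lower (-0.63). Of the 18 tested 1 was higher and none lower by edgeR (median log2 fold change -0.03); unadjusted p was under 0.05 for 2 and 3, and DESeq2 called 1 and 0. The higher count was 0 without unstimulated replicate c, IFN-γ replicates 2 and 3 and IFN-γ + *E. coli* replicates 1, 2 and 3, 2 without unstimulated replicate b and *E. coli* replicate 3, and the lower count 1 without *E. coli* replicate 3, 2 without IFN-γ + *E. coli* replicate 3. The 18 neutrophil markers summed to 1403, 1409 and 1485 CPM and 1226, 1314 and 1403 CPM, with *Ltf* and *Stfa2l1* at 0. Of the 9 tested 3 were higher and 3 lower (median 0.29), and the most abundant, the resistin-like gene *Retnlg*, fell from 615, 567 and 664 to 281, 329.8 and 324 CPM (log2 fold change -0.98 ± 0.12, adjusted p = 1.35e-05).

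B cell markers, 14 genes with *Igkc* the most abundant and none at 0, summed to 183, 119 and 100.1 CPM with IFN-γ alone and 207, 230.1 and 276 CPM with both stimuli. Of 8 tested, 3 were called higher (median 0.88), but 0 by DESeq2, and the count was 0 without *E. coli* replicate 1, IFN-γ replicates 2 and 3 and IFN-γ + *E. coli* replicates 2 and 3, 1 without unstimulated replicate a and IFN-γ replicate 1. No B cell marker was called lower by edgeR or DESeq2, and none had an unadjusted p under 0.05 in that direction. The 11 mast cell and basophil markers summed to 199, 197 and 170.0 CPM and 535, 541 and 561 CPM, with *Mcpt4* and *Mcpt8* at 0. Their most abundant member was the histidine decarboxylase gene *Hdc*, and 2 of 3 tested were higher (median 1.52). Among them, the chymase gene *Cma1*, which has a near-identical copy, rose from 6.16, 3.59 and 5.23 to 13.1, 32.9 and 32.97 CPM (log2 fold change 2.42 ± 0.49, adjusted p = 0.00256).

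Mesothelium and platelet markers summed to 382, 388 and 402 CPM and 413, 533 and 602 CPM, led by *Pf4*, with 6 of 12 at 0 (*Gp1bb*, *Gp9*, *Krt19*, *Krt8*, *Lrrn4* and *Msln*). Of 3 tested 1 was higher (median 0.36; the higher count was 0 without IFN-γ replicate 1). Dendritic cell markers (3 tested, median 0.12) and T and NK cell markers (1 tested, 0.40) had 0 called in either direction by edgeR or DESeq2, and 0 at unadjusted p under 0.05. The part of these cells in the result was not tested. In a pooled measurement of this kind, fewer cells of a type and less RNA per cell cannot be told apart.

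Genes were called at an adjusted p under 0.05 in edgeR over 9883 genes tested, and values after ± are standard errors of the log2 fold change. With *E. coli* added to IFN-γ, 618 genes were higher (6.25% of those tested) and 591 lower (5.98%). These shares are the background for each list count of this comparison. Of the 618, 218 were higher by a factor of 2 or more and 59 by a factor of 4 or more, while of the 591, 186 and 21 were lower by those factors. Without IFN-γ replicate 1 the counts were 374 and 366, and without IFN-γ + *E. coli* replicate 2 they were 437 and 336. For 600 of the 618 and 581 of the 591 the 3 and 3 libraries did not overlap, which was so for 1363 (13.8%) and 1418 (14.3%) of all genes tested.

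**Figure D1:**
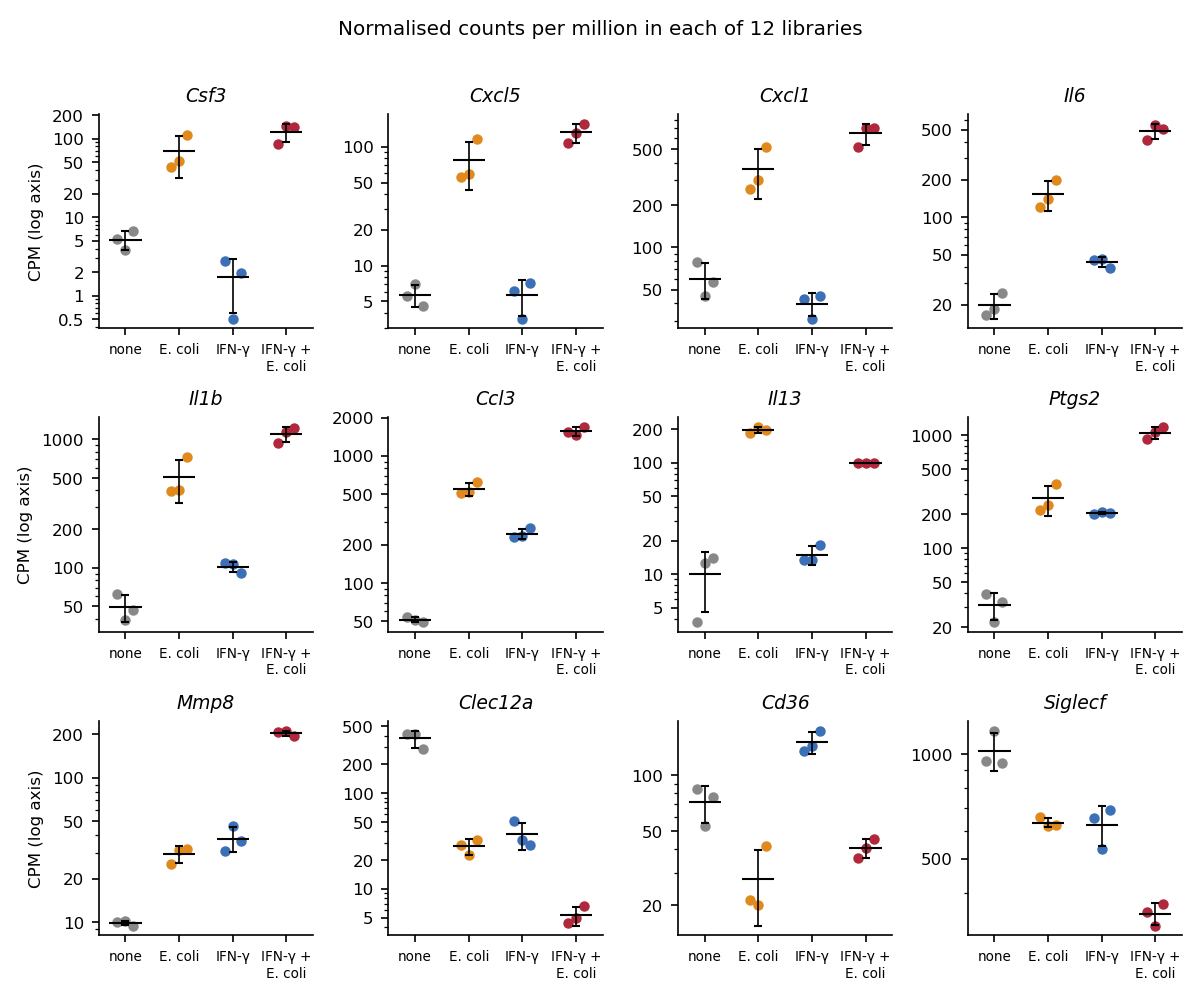
CPM (log axis) of 12 genes in each library of the 4 groups, with bars at the mean and 1 SD; each point is 1 library. *Csf3* had 86.9, 144 and 141 CPM with both stimuli and *Siglecf* 353, 322 and 371 CPM.

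The genes with the largest rises and falls were taken only from called genes whose libraries did not overlap. Lack of overlap in these genes was thus set by the rule and adds nothing to the test. The largest rise among the genes that met the naming rule was in *Csf3* (ENSMUSG00000038067, chr11:98701263-98703629, GRCm38), which encodes the granulocyte growth factor G-CSF. It had 2.80, 0.513 and 1.96 CPM with IFN-γ alone and 86.9, 144 and 141 CPM with both stimuli (log2 fold change 6.14 ± 0.48, adjusted p = 4.95e-08). All 3 libraries with both stimuli were higher by far than the 3 with IFN-γ, a 70.4-fold difference. The neutrophil chemokine gene *Cxcl5* rose from 6.16, 3.59 and 7.19 to 108, 132 and 157 CPM (log2 fold change 4.57 ± 0.32, adjusted p = 1.35e-08), again without overlap. *Dgat2*, whose enzyme makes triglyceride, had 2.80, 0.513 and 1.96 CPM with IFN-γ alone and 28.5, 41.1 and 38.9 CPM with both stimuli (log2 fold change 4.36 ± 0.34, adjusted p = 4.15e-08). The retrotransposon-derived gene *Peg10* stood at 5.04, 4.61 and 5.23 CPM with IFN-γ and at 94.2, 90.4 and 117 CPM after *E. coli* was added (log2 fold change 4.33 ± 0.23, adjusted p = 3.00e-10). Each library of the higher group exceeded each of the lower in both genes.

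*Calb2*, the calcium-binding protein calretinin, had 3 counts over the IFN-γ libraries and 8.03, 12.6 and 13.2 CPM with both stimuli, a 20.1-fold ratio with a 95% counting interval of 6.53 to 101. Such intervals cover counting error only and take each count as independent. *U90926* (protein coding) had 2.24, 1.54 and 3.27 CPM with IFN-γ alone and 26.3, 38.4 and 44.2 CPM with both stimuli (log2 fold change 3.96 ± 0.48, adjusted p = 1.45e-05). *Tnfrsf9*, the co-stimulatory receptor 4-1BB, rose from 0.560, 1.03 and 0.654 to 8.76, 9.31 and 12.5 CPM (log2 fold change 3.64 ± 0.68, adjusted p = 0.00129). The 3 libraries with both stimuli were the higher ones in each of these genes, as the naming rule required. *Slamf1*, a receptor that also binds bacterial porins and shares near-identical stretches with other genes, had 7.28, 8.71 and 5.23 CPM with IFN-γ alone and 70.1, 87.7 and 104 CPM with both stimuli (log2 fold change 3.59 ± 0.39, adjusted p = 3.95e-06). *Inhba* encodes the subunit of activin A and rose from 12.3, 19.5 and 15.7 to 138, 229 and 161 CPM (log2 fold change 3.47 ± 0.28, adjusted p = 8.81e-08). Both genes lay higher in every library with *E. coli*.

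The transcription factor gene *Pou2f2* (OCT2), within which the microRNA gene *Mir6537* lies, had 21.3, 20.5 and 13.7 CPM with IFN-γ alone and 223, 231 and 151 CPM with both stimuli (log2 fold change 3.43 ± 0.18, adjusted p = 3.00e-10). Its groups were far apart, with the lowest library after *E. coli* above the highest with IFN-γ. *Slc43a3*, a purine base transporter, rose from 2.80, 2.56 and 1.96 to 28.5, 29.04 and 17.1 CPM (log2 fold change 3.31 ± 0.37, adjusted p = 6.36e-06). Tissue factor, the starter of coagulation encoded by *F3*, had 0.560, 3.08 and 1.31 CPM with IFN-γ alone and 16.1, 10.4 and 20.4 CPM with both stimuli (log2 fold change 3.14 ± 0.58, adjusted p = 0.00119). Libraries did not overlap for *F3*, but its value depended on 1 library and was 3.99 without IFN-γ replicate 2. Hepcidin, the iron hormone encoded by *Hamp*, had 2 counts over the IFN-γ libraries and 7.30, 7.67 and 13.2 CPM with both stimuli, a 24.6-fold ratio (95% counting interval 6.42 to 209).

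Genes of bacterial sensing moved in both directions. Of 22 tested, 3 were higher and 3 lower, 13.6% in each direction against 6.25% and 5.98% of all genes tested. The median was 0.03, against 0.01 over all genes tested, and the lower count was 5 without IFN-γ + *E. coli* replicate 3. *Cd14*, the co-receptor that hands lipopolysaccharide to TLR4, had 719, 703 and 773 CPM with IFN-γ alone and 1139, 1380.2 and 1661 CPM with both stimuli (log2 fold change 0.93 ± 0.20, adjusted p = 0.00429). *Tlr4* itself had 31.9, 29.2 and 38.6 CPM with IFN-γ alone and 20.4, 18.6 and 16.5 CPM with both stimuli (log2 fold change -0.84 ± 0.19, adjusted p = 0.00586). *Cd14* was therefore higher and *Tlr4* lower in every library with *E. coli*, and neither gene overlapped. *Irak3*, the kinase-like brake on TLR signalling with exons opposite *Tmbim4*, rose from 123, 133 and 150.4 to 673, 589 and 667 CPM (log2 fold change 2.25 ± 0.11, adjusted p = 1.86e-10). *Cd180*, a TLR4-like receptor that lies opposite an exon of *Mast4*, fell from 119, 102 and 77.2 to 32.1, 32.9 and 21.1 CPM (log2 fold change -1.79 ± 0.19, adjusted p = 2.82e-06). *Myd88*, the adaptor of most TLRs with exons opposite *Acaa1a*, had 175, 183 and 163 CPM against 186, 179.7 and 169 CPM and was not called. *Tlr1*, which pairs with TLR2, had 5.04, 4.10 and 7.19 CPM with IFN-γ alone and 9.49, 17.5 and 17.1 CPM with both stimuli (log2 fold change 1.47 ± 0.34, adjusted p = 0.00727), while *Tlr2* had 11.8, 5.13 and 2.62 CPM against 8.76, 6.57 and 12.5 CPM.

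NF-kB genes were higher in 8 of 15 tested and lower in 0 (median 0.48); DESeq2 likewise called 0 lower, and 0 lower had an unadjusted p under 0.05. The atypical IkB gene *Nfkbiz*, needed for a second wave of cytokine genes, had 41.4, 41.5 and 33.4 CPM with IFN-γ alone and 200.1, 168 and 175 CPM with both stimuli (log2 fold change 2.21 ± 0.14, adjusted p = 2.92e-09). The inhibitor gene *Nfkbia* had 405, 396 and 373 CPM with IFN-γ alone and 617, 753 and 786 CPM with both stimuli (log2 fold change 0.88 ± 0.12, adjusted p = 9.22e-05). Both genes were higher in every library with *E. coli*. *Nfkb2*, which has antisense exons from *Psd*, rose from 149, 149.7 and 116 to 267, 277 and 293 CPM (log2 fold change 1.01 ± 0.14, adjusted p = 5.58e-05), and *Nfkb1* from 189, 222 and 188 to 291, 314 and 265 CPM (log2 fold change 0.54 ± 0.11, adjusted p = 0.00224). The gene of the p65 subunit, *Rela*, had 79.5, 67.7 and 85.01 CPM against 78.9, 82.7 and 103 CPM and was not called.

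Of 24 feedback inhibitors tested, 8 were higher and 1 lower (median 0.35), the lower count being 0 without IFN-γ replicates 2 and 3 and IFN-γ + *E. coli* replicate 2. *Socs3*, which blocks STAT3 signalling from gp130 receptors, had 73.9, 66.6 and 68.01 CPM with IFN-γ alone and 169, 234 and 290.2 CPM with both stimuli (log2 fold change 1.74 ± 0.22, adjusted p = 2.98e-05). *Zc3h12a*, the RNase regnase-1 that cuts cytokine mRNAs, had 35.3, 29.7 and 44.5 CPM with IFN-γ alone and 86.2, 90.95 and 102 CPM with both stimuli (log2 fold change 1.36 ± 0.16, adjusted p = 1.03e-05). *Tnfaip3* encodes A20, an enzyme that edits ubiquitin on NF-kB activators, and rose from 110.3, 115 and 137 to 261, 237 and 282 CPM (log2 fold change 1.11 ± 0.13, adjusted p = 9.46e-06). None of the 3 genes overlapped between groups, and in each the libraries with *E. coli* were higher. *Cish*, a target of STAT5 with antisense exons from unnamed genes, rose from 189, 192 and 200.1 to 309.7, 305 and 349 CPM (log2 fold change 0.73 ± 0.11, adjusted p = 1.71e-04). *Socs1*, the main brake on IFN-γ receptor signalling, was not called, with 1411, 1261 and 1188 CPM against 1282, 1392 and 1085 CPM.

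Cytokine genes were the list with the most rises, 16 of 25 tested, with 2 lower (median 1.17). *Il6* had 45.9, 46.1 and 39.2 CPM with IFN-γ alone and 413, 548 and 512 CPM with both stimuli (log2 fold change 3.48 ± 0.18, adjusted p = 3.00e-10). *Il1b*, which has the antisense gene *Il1bos*, had 108, 107 and 91.6 CPM with IFN-γ alone and 945, 1148 and 1215 CPM with both stimuli (log2 fold change 3.43 ± 0.21, adjusted p = 2.62e-09). Both were several times higher in every library with *E. coli*. *Il1a*, the alarmin partner of IL-1β with an unnamed gene on the other strand, rose from 87.9, 109 and 119 to 572, 684 and 712 CPM (log2 fold change 2.64 ± 0.20, adjusted p = 2.85e-08). *Tnf* had 21.8, 19.99 and 24.9 CPM with IFN-γ alone and 74.5, 69.6 and 100.2 CPM with both stimuli (log2 fold change 1.88 ± 0.20, adjusted p = 3.54e-06), the lowest library with both stimuli above the highest with IFN-γ. *Osm*, the gp130 cytokine oncostatin M, rose from 76.1, 94.3 and 100.1 to 232, 237 and 305 CPM (log2 fold change 1.52 ± 0.13, adjusted p = 2.88e-07).

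The increases were not confined to classical type 1 cytokines. *Il13* had 13.4, 13.3 and 18.3 CPM with IFN-γ alone and 99.3, 98.6 and 98.9 CPM with both stimuli (log2 fold change 2.73 ± 0.23, adjusted p = 2.10e-07), and *Il4* had 119.8, 134 and 126 CPM with IFN-γ alone and 158, 198 and 210.4 CPM with both stimuli (log2 fold change 0.58 ± 0.12, adjusted p = 0.00364). *Il13* was several times higher in all libraries with *E. coli*, whereas the shift of *Il4* was small and still without overlap. *Il33*, an alarmin that acts on type 2 cells, rose from 4.48, 8.20 and 5.89 to 20.4, 25.8 and 29.7 CPM (log2 fold change 2.01 ± 0.37, adjusted p = 0.00118). *Il10*, the anti-inflammatory cytokine, had 2.80, 1.54 and 1.31 CPM with IFN-γ alone and 5.11, 9.86 and 11.9 CPM with both stimuli (log2 fold change 2.22 ± 0.51, adjusted p = 0.00699). Both genes were at low levels with IFN-γ alone and higher in every library with both stimuli. *Vegfa*, the vascular growth factor, rose from 307, 433 and 541 to 1158, 983 and 1166 CPM (log2 fold change 1.37 ± 0.16, adjusted p = 9.46e-06).

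*Il27*, a subunit of an IL-12 family cytokine and opposite *Apobr* exons, had 29.7, 24.6 and 48.4 CPM with IFN-γ alone and 59.2, 70.7 and 74.5 CPM with both stimuli (log2 fold change 1.02 ± 0.21, adjusted p = 0.00307). *Il12b*, the shared subunit of IL-12 and IL-23, was not called, with 16.8, 5.13 and 1.96 CPM with IFN-γ alone and 19.7, 23.6 and 11.2 CPM with both stimuli (log2 fold change 1.17 ± 0.47, adjusted p = 0.118). IFN-γ replicate 1 lay above both other IFN-γ libraries and 1 library with *E. coli*, and without it *Il12b* was called at 2.29. *Ltb*, the lymphotoxin subunit that builds lymphoid tissue, fell from 74.4, 56.9 and 59.5 to 24.8, 32.9 and 23.1 CPM (log2 fold change -1.22 ± 0.21, adjusted p = 5.40e-04).

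CXC chemokine genes were higher in 6 of 12 tested and lower in none (median 0.53); DESeq2 called 0 lower, and 0 lower had an unadjusted p under 0.05. The largest rises lay in the genes of CXCR2 ligands, which attract neutrophils. *Cxcl1* had 43.1, 31.3 and 45.1 CPM with IFN-γ alone and 516, 711 and 709 CPM with both stimuli (log2 fold change 4.03 ± 0.26, adjusted p = 3.01e-09). *Cxcl2* had 315, 400.3 and 364 CPM with IFN-γ alone and 2009.9, 1906 and 2095 CPM with both stimuli (log2 fold change 2.48 ± 0.17, adjusted p = 8.90e-09). Both were far higher in all libraries with *E. coli*, and since *Cxcl2* came near the count ceiling its value was 3.31 after the correction. *Cxcl3* had 933, 1057 and 1177 CPM with IFN-γ alone and 2481, 2121 and 2414 CPM with both stimuli (log2 fold change 1.15 ± 0.14, adjusted p = 1.16e-05), and 2.09 after the same correction. The CXCR3 ligand genes, which IFN-γ itself drives, were not called: *Cxcl9* had 339, 339 and 358 CPM against 256, 357 and 450.4 CPM and *Cxcl10*, with antisense exons of *Art3*, 686, 695 and 871 CPM against 716, 889 and 1229.9 CPM. *Cxcl16*, opposite *Zmynd15* exons, had 61.01, 42.5 and 50.4 CPM against 70.1, 96.98 and 111 CPM (log2 fold change 0.86 ± 0.24, adjusted p = 0.02502), but the call was lost without IFN-γ replicate 2 (0.73) or 3 (0.85) and without IFN-γ + *E. coli* replicate 2 (0.83) or 3 (0.71).

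Among CC chemokine genes 6 of 11 tested were higher and 0 lower by edgeR or DESeq2 (median 0.76), with 0 lower at unadjusted p under 0.05. *Ccl3* and *Ccl4*, whose products attract monocytes and T cells, led them. *Ccl3* had 231, 233 and 269 CPM with IFN-γ alone and 1542, 1449 and 1684 CPM with both stimuli (log2 fold change 2.67 ± 0.12, adjusted p = 3.58e-11). *Ccl4* had 143, 169.7 and 146 CPM with IFN-γ alone and 714, 897 and 893 CPM with both stimuli (log2 fold change 2.45 ± 0.23, adjusted p = 5.29e-07). All libraries with *E. coli* were higher for both. The monocyte attractants followed, with *Ccl2* at 349, 319.9 and 340.1 CPM against 608, 858 and 1014 CPM (log2 fold change 1.30 ± 0.21, adjusted p = 3.52e-04) and *Ccl7* at 47.6, 50.2 and 49.05 CPM against 94.9, 122 and 211 CPM (log2 fold change 1.54 ± 0.31, adjusted p = 0.00245). *Ccl24*, the eotaxin-2 gene, was called (log2 fold change 0.88 ± 0.27, adjusted p = 0.0371) with 20.2, 23.6 and 13.7 CPM against 25.6, 38.9 and 42.2 CPM, and the call was lost without IFN-γ replicate 1 (0.91) or 3 (0.71) and without IFN-γ + *E. coli* replicate 2 (0.81) or 3 (0.74).

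Of 16 chemoattractant receptor genes tested, 4 were higher and 1 lower (median -0.02). Both counts hung on single libraries: the higher count was 1 without IFN-γ replicate 1 and IFN-γ + *E. coli* replicate 2, 2 without IFN-γ replicates 2 and 3 and IFN-γ + *E. coli* replicate 3, and the lower count 2 without unstimulated replicates b and c, IFN-γ replicate 3 and IFN-γ + *E. coli* replicate 3. *Ccrl2*, a receptor that holds chemerin at the cell surface, had 225, 231 and 257 CPM with IFN-γ alone and 378, 424 and 501 CPM with both stimuli (log2 fold change 0.87 ± 0.17, adjusted p = 0.00157). *P2ry14*, the receptor for UDP-glucose, had 632, 645 and 627 CPM with IFN-γ alone and 436, 391 and 297 CPM with both stimuli (log2 fold change -0.76 ± 0.12, adjusted p = 3.52e-04). The first was higher and the second lower in every library with *E. coli*.

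The core of the binding site of NF-kB was looked for in 300 bases around transcription starts, most of them upstream (RefSeq promoters, GRCm38.p6), because genes known as NF-kB targets were among the largest rises. The letters GGNNTTNCC, on either strand and with any base at N, occurred in 117 of 463 promoters of genes higher with *E. coli* (25.3%), 89 of 452 of lower genes (19.7%), 1517 of 7575 of all genes tested (20.03%) and 5244 of all 32851 promoters (15.96%). Among genes higher by a factor of 4 or more 14 of 39 promoters had it (35.9%). Another 5 motifs were searched in the same way, and a stretch could match more than 1. AP-1 (TGANTCA) occurred in 10.8% of promoters of higher, 8.85% of lower and 6.39% of all genes tested, and in 6 of the 39 (15.4%). GAS (TTCNNNGAA) occurred in 10.2%, 8.85% and 8.17%, and also in 6 of the 39. For ISRE (GAAANNGAA) the shares were 10.6%, 10.4% and 9.41%, for the hypoxia motif (ACGTG) 34.99%, 23.9% and 30.5%, and for CRE (TGACGTCA) 4.75%, 1.33% and 3.80%, with 4, 7 and 1 of the 39. Of 8 mediator genes with a promoter sequence, 4 had a match (*Cxcl1*, *Cxcl2*, *Il6* and *Ptgs2*) and 4 had none (*Il1b*, *Ccl3*, *Il1a* and *Tnf*), while *Cxcl5*, *Csf3*, *Nfkbiz* and *Ccl4* had no entry. The 4 with a match are shown to let the site be seen, at chr5:90890995-90891294, chr5:90903649-90903948, chr5:30012864-30013163 and chr1:150099781-150100080. All 4 genes lie on the plus strand. Capitals mark the matches. The first match of *Cxcl1* and the only match of *Ptgs2* fit the letters on the opposite strand, the others on the strand shown.
Cxcl1: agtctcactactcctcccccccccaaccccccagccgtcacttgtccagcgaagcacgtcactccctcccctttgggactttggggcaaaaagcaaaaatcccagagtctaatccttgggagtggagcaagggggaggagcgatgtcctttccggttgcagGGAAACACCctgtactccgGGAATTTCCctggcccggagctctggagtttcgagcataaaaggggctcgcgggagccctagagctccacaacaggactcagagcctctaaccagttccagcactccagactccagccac
Cxcl2: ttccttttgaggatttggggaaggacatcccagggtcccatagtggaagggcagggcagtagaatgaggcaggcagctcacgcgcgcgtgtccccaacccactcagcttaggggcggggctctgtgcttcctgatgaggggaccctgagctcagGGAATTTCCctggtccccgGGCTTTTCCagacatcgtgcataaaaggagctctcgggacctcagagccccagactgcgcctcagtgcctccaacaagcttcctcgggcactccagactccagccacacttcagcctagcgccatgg
Il6: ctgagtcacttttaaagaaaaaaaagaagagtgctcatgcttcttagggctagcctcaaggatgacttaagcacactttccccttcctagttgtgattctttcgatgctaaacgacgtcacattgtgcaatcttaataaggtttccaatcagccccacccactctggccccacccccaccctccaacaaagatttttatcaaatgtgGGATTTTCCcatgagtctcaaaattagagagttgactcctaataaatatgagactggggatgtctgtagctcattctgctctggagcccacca
Ptgs2: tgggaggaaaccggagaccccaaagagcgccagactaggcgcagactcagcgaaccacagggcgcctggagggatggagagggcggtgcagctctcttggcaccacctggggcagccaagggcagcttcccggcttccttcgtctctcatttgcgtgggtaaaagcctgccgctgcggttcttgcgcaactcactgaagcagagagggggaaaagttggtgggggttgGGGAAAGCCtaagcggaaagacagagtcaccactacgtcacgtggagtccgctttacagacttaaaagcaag

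Of 27 genes for AP-1, EGR and related stress transcription factors, 10 were higher and 2 lower (median 0.26). The higher count was 6 without IFN-γ replicate 1, and the lower count 1 without IFN-γ replicates 1 and 2 and IFN-γ + *E. coli* replicates 1 and 3. *Fosl1*, the AP-1 subunit FRA1 with antisense exons of *Ccdc85b*, rose from 11.2, 18.97 and 10.5 to 67.2, 71.2 and 66.6 CPM (log2 fold change 2.31 ± 0.22, adjusted p = 6.44e-07). *Maff*, a small partner of AP-1 and NRF2 proteins, had 14.6, 18.97 and 28.8 CPM with IFN-γ alone and 79.6, 86.02 and 95.6 CPM with both stimuli (log2 fold change 2.09 ± 0.19, adjusted p = 3.76e-07). *Egr1* (ENSMUSG00000038418, chr18:34859823-34864984, GRCm38), an immediate-early zinc finger gene, had 27.99, 25.1 and 30.7 CPM with IFN-γ alone and 69.4, 65.2 and 73.9 CPM with both stimuli (log2 fold change 1.32 ± 0.17, adjusted p = 3.72e-05). In all 3 genes the libraries with *E. coli* were higher without overlap. *Egr2* rose from 95.2, 100.5 and 130.1 to 222, 204 and 238 CPM (log2 fold change 1.03 ± 0.16, adjusted p = 1.81e-04), while *Fos* was not called, with 54.9, 41.5 and 44.5 CPM against 43.8, 56.4 and 45.5 CPM.

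Genes that IFN-γ induces were called about as often as all genes tested when *E. coli* was added. Of 37 IFN-γ target genes tested, 2 were higher and 2 lower, 5.41% in each direction against 6.25% and 5.98% of all genes (median 0.04), the lower count being 1 without IFN-γ replicates 2 and 3 and IFN-γ + *E. coli* replicate 2. *Irf1*, with an unnamed antisense gene, had 1315, 1293 and 1352 CPM against 1299, 1250.3 and 1284 CPM and was not called. *Gbp2*, a guanylate-binding protein opposite a microRNA gene and near the ceiling in the most abundant library, had 2074, 1891 and 2383 CPM against 2402, 1993 and 2282 CPM. An exception was *Nos2*, the inducible nitric oxide synthase, with 549.7, 568 and 643 CPM with IFN-γ alone and 919.5, 1111 and 1396 CPM with both stimuli (log2 fold change 0.96 ± 0.21, adjusted p = 0.00459), higher in every library with *E. coli*. The other was *Cd274*, the checkpoint ligand PD-L1, with 1027, 1076 and 1029 CPM with IFN-γ alone and 1625, 1494 and 1561 CPM with both stimuli (log2 fold change 0.58 ± 0.14, adjusted p = 0.00935) and antisense exons of an unnamed gene. *Gbp2b* fell from 11.2, 9.23 and 11.1 to 0, 0.548 and 2.64 CPM (log2 fold change -3.23 ± 0.61, adjusted p = 0.00205), and without IFN-γ + *E. coli* replicate 3 its value was -4.83.

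Type I interferon-stimulated genes were higher in 3 and lower in 3 of 35 tested (median -0.02). This was 8.57% in each direction, near the 6.25% and 5.98% of all genes tested. The higher count was 1 without IFN-γ replicate 1, and the lower count 5 without *E. coli* replicate 3 and IFN-γ + *E. coli* replicate 3. *Ifit1bl1*, of the family that binds foreign RNA, had 125, 144 and 157 CPM with IFN-γ alone and 48.9, 43.3 and 48.1 CPM with both stimuli (log2 fold change -1.60 ± 0.18, adjusted p = 8.33e-06). *Ifit3*, near-identical to *Ifit3b*, fell from 474, 484 and 523 to 207, 234 and 307 CPM (log2 fold change -0.99 ± 0.23, adjusted p = 0.00760). *Ifitm3*, a membrane protein that blocks virus entry, rose from 1019, 1035 and 1161 to 1799, 1684 and 1893 CPM (log2 fold change 0.74 ± 0.13, adjusted p = 9.06e-04). The MHC class II list had 0 of 9 called in either direction by edgeR and DESeq2, with 2 higher and 0 lower at unadjusted p under 0.05 (median 0.20; the higher count was 1 without *E. coli* replicate 3 and IFN-γ + *E. coli* replicate 1). *Cd74*, the invariant chain with a microRNA gene inside it, had 238, 216 and 214 CPM against 209, 327 and 309 CPM.

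**Figure D2:**
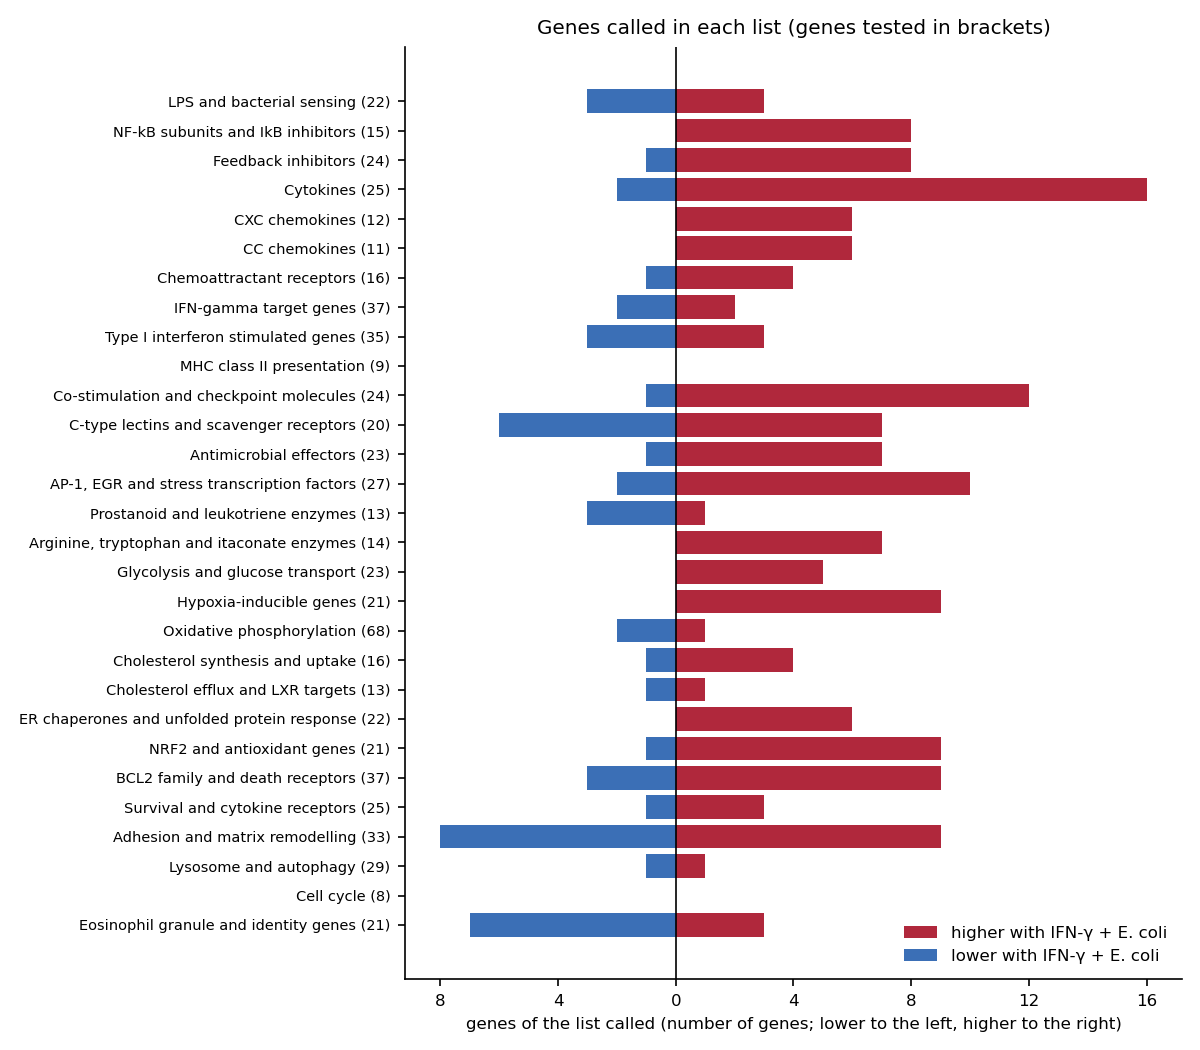
Number of genes called higher (right) and lower (left) with both stimuli than with IFN-γ in each list, with the number tested in brackets; each bar is 1 list. Cytokines had 16 of 25 higher and IFN-γ target genes 2 of 37.

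Co-stimulation and checkpoint genes were higher in 12 of 24 tested and lower in 1 (median 0.65; the lower count was 2 without IFN-γ + *E. coli* replicate 3). *Trem1*, a receptor that amplifies TLR responses, had 23.5, 28.2 and 23.5 CPM with IFN-γ alone and 121, 131 and 107 CPM with both stimuli (log2 fold change 2.24 ± 0.14, adjusted p = 2.71e-09). *Pdcd1lg2*, the PD-L2 gene, had 6.72, 5.64 and 5.23 CPM with IFN-γ alone and 21.2, 29.04 and 23.7 CPM with both stimuli (log2 fold change 2.07 ± 0.27, adjusted p = 4.14e-05). Both lay higher in every library with *E. coli*. *Cd40* rose from 61.01, 50.2 and 51.01 to 81.1, 121 and 137 CPM (log2 fold change 1.07 ± 0.24, adjusted p = 0.00523), *Cd200* from 46.5, 32.3 and 39.9 to 58.4, 94.2 and 110.1 CPM (log2 fold change 1.16 ± 0.25, adjusted p = 0.00398), and the collagen receptor gene *Tarm1* from 51.5, 48.7 and 37.3 to 78.9, 107 and 110.1 CPM (log2 fold change 1.10 ± 0.19, adjusted p = 8.23e-04). *Pilra*, an inhibitory receptor with near-identical copies and antisense exons of *Zcwpw1*, had 96.8, 73.8 and 92.2 CPM with IFN-γ alone and 338, 331 and 383 CPM with both stimuli (log2 fold change 2.00 ± 0.13, adjusted p = 2.92e-09). *Lair1*, the inhibitory collagen receptor, was the gene called lower, with 229, 257 and 226 CPM with IFN-γ alone and 174, 163 and 113 CPM with both stimuli (log2 fold change -0.66 ± 0.15, adjusted p = 0.00651). *Cd86* had 100.2, 95.3 and 107 CPM against 82.5, 118 and 141 CPM and was not called.

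C-type lectins and scavenger receptors divided almost evenly, 7 of 20 tested higher and 6 lower (median 0.15). *Clec4e* and *Clec4d* encode Mincle and its partner, which bind mycobacterial glycolipid. *Clec4e* had 447, 442 and 470.2 CPM with IFN-γ alone and 814, 858 and 1033 CPM with both stimuli (log2 fold change 0.99 ± 0.16, adjusted p = 2.90e-04). *Clec4d* had 285, 281 and 315 CPM with IFN-γ alone and 419, 443 and 604 CPM with both stimuli (log2 fold change 0.73 ± 0.15, adjusted p = 0.00355). They were higher with *E. coli* in every library, whereas *Clec7a*, the beta-glucan receptor dectin-1, fell from 130.4, 122 and 135 to 65.00, 66.8 and 60.01 CPM (log2 fold change -1.01 ± 0.13, adjusted p = 4.09e-05). *Cd36*, which takes up oxidised lipoprotein, had 135, 144 and 174 CPM with IFN-γ alone and 35.8, 40.5 and 45.5 CPM with both stimuli (log2 fold change -1.89 ± 0.22, adjusted p = 9.46e-06). The other oxidised lipoprotein receptor, *Olr1*, moved up from 89.00, 87.1 and 103 to 167, 146 and 153 CPM (log2 fold change 0.74 ± 0.13, adjusted p = 5.80e-04).

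Antimicrobial genes were higher in 7 of 23 tested and lower in 1 (median 0.33), the higher count being 4 without IFN-γ replicate 1. *Lcn2* encodes lipocalin 2, which withholds bacterial siderophores, and had 72.2, 63.6 and 54.3 CPM with IFN-γ alone and 238, 285 and 350.2 CPM with both stimuli (log2 fold change 2.20 ± 0.26, adjusted p = 1.19e-05). *Slc11a1* encodes the metal pump NRAMP1 of phagosomes and had 739, 678 and 671 CPM with IFN-γ alone and 1318, 1163 and 1178 CPM with both stimuli (log2 fold change 0.81 ± 0.14, adjusted p = 7.10e-04). Both were higher in all libraries with *E. coli*. The gene of the peptidoglycan-binding protein *Pglyrp1* fell from 195, 186 and 163 to 83.99, 77.3 and 97.6 CPM (log2 fold change -1.08 ± 0.17, adjusted p = 2.40e-04).

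Enzymes of prostanoid and leukotriene synthesis had 1 of 13 higher and 3 lower (median -0.09); the higher count was 2 without *E. coli* replicate 3 and IFN-γ + *E. coli* replicate 1, and the lower 1 without IFN-γ + *E. coli* replicate 2. *Ptgs2*, the inducible cyclooxygenase COX-2, had 202, 211 and 203 CPM with IFN-γ alone and 921, 1054 and 1172 CPM with both stimuli (log2 fold change 2.35 ± 0.18, adjusted p = 2.85e-08). *Tbxas1*, the thromboxane synthase with an unnamed antisense gene, had 423, 405 and 437 CPM with IFN-γ alone and 251, 267 and 276 CPM with both stimuli (log2 fold change -0.67 ± 0.10, adjusted p = 2.11e-04). The former was higher and the latter lower in every library with *E. coli*.

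The list of arginine, tryptophan and itaconate enzymes also holds other genes, among them *Hdc*, *Gch1*, *Nampt* and the transporter genes *Slc7a2* and *Slc7a11*. It had 7 of 14 tested higher and 0 lower by edgeR and DESeq2 (median 0.50), with 0 lower at unadjusted p under 0.05. *Hdc*, which makes histamine, rose from 166, 181 and 155 to 494, 457 and 488 CPM (log2 fold change 1.52 ± 0.14, adjusted p = 3.57e-07). *Slc7a11*, the cystine importer with 1 near-identical copy, had 451, 477 and 472 CPM with IFN-γ alone and 1081, 1077 and 905 CPM with both stimuli (log2 fold change 1.13 ± 0.13, adjusted p = 1.03e-05). Libraries of the groups did not overlap in these 2 genes, with those exposed to *E. coli* higher. *Gch1*, whose product supplies the cofactor of nitric oxide synthase, rose from 124, 139 and 141 to 182, 227 and 198 CPM (log2 fold change 0.59 ± 0.12, adjusted p = 0.00270), and *Ido1* was not called (6.16, 5.13 and 7.85 CPM against 7.30, 8.22 and 4.62 CPM).

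Glycolysis genes were higher in 5 of 23 tested and lower in 0 (median 0.24); the higher count was 2 without IFN-γ replicate 1 and IFN-γ + *E. coli* replicate 3, 3 without IFN-γ replicate 2 and IFN-γ + *E. coli* replicate 1. In the lower direction 0 were called by DESeq2 and 0 had an unadjusted p under 0.05. *Pfkfb3*, which sets the pace of glycolysis, had 217, 336 and 407 CPM with IFN-γ alone and 516, 474 and 597 CPM with both stimuli (log2 fold change 0.73 ± 0.16, adjusted p = 0.00618). Hypoxia-inducible genes were higher in 9 of 21 tested and lower in 0 (median 0.42; the higher count was 4 without IFN-γ replicate 1), again with 0 lower by DESeq2 and 0 at unadjusted p under 0.05. *Ndrg1*, a stress gene with antisense exons of unnamed genes, rose from 19.6, 25.6 and 23.5 to 56.97, 64.1 and 98.3 CPM (log2 fold change 1.67 ± 0.25, adjusted p = 1.47e-04). *Ankrd37*, with exons opposite *Lrp2bp* and *Ufsp2*, had 73.9, 85.6 and 84.4 CPM with IFN-γ alone and 121, 153 and 134 CPM with both stimuli (log2 fold change 0.75 ± 0.15, adjusted p = 0.00224). Every library with *E. coli* was higher in these 3 genes. *Ldha*, which has near-identical copies and a count over 2048, had 1538, 1583 and 1882 CPM against 2045, 1797 and 2054 CPM and *Hk2* 545, 772 and 833 CPM against 696, 758 and 838 CPM, and neither was called.

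Oxidative phosphorylation genes had 1 of 68 higher (1.47%, against 6.25% of all genes tested) and 2 lower (median -0.03). The higher count was 0 without IFN-γ replicates 2 and 3 and IFN-γ + *E. coli* replicates 2 and 3, 2 without IFN-γ + *E. coli* replicate 1. The lower count was 0 without IFN-γ replicate 1 and IFN-γ + *E. coli* replicate 1, 1 without IFN-γ + *E. coli* replicate 2, 4 without unstimulated replicate b. Of 13 mitochondrially encoded genes, 1 was higher and 1 lower (median 0.08). The ceiling could hide changes in 9 of the 13, which had a count over 2048 in at least 1 of the 6 libraries. The lower count was 0 without unstimulated replicates a, b and c, *E. coli* replicate 1, IFN-γ replicates 1 and 2 and IFN-γ + *E. coli* replicates 1, 2 and 3. The higher one, *mt-Nd4l*, overlaps *mt-Nd4* and has a nuclear copy, and had 88.4, 101 and 92.2 CPM with IFN-γ alone and 169, 164 and 148 CPM with both stimuli (log2 fold change 0.77 ± 0.13, adjusted p = 7.57e-04).

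Cholesterol synthesis and uptake genes were higher in 4 of 16 tested and lower in 1 (median 0.38), the higher count being 2 without IFN-γ replicates 2 and 3 and IFN-γ + *E. coli* replicate 2. *Cyp51*, a sterol demethylase opposite *Akap9*, had 18.5, 19.99 and 24.2 CPM with IFN-γ alone and 43.8, 36.7 and 39.6 CPM with both stimuli (log2 fold change 0.94 ± 0.18, adjusted p = 0.00205). It was higher in all libraries with *E. coli*. Of 13 efflux and LXR target genes 1 was higher and 1 lower (median 0.27); the higher count was 2 without unstimulated replicate a and IFN-γ replicate 3, and the lower 0 without IFN-γ replicates 1 and 3 and IFN-γ + *E. coli* replicates 1 and 2. The higher one was the exporter gene *Abca1*, with 123, 151 and 163 CPM with IFN-γ alone and 423, 403 and 363 CPM with both stimuli (log2 fold change 1.45 ± 0.19, adjusted p = 3.54e-05).

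Of 22 genes of the ER and the unfolded protein response, 6 were higher and 0 lower (median 0.26), and the higher count was 1 without IFN-γ replicate 2, 2 without IFN-γ replicate 1, 3 without IFN-γ + *E. coli* replicates 1, 2 and 3. DESeq2 called 0 lower, and 0 lower had an unadjusted p under 0.05. *Hspa5*, the chaperone BiP, had 408, 375 and 407 CPM with IFN-γ alone and 592, 597 and 671 CPM with both stimuli (log2 fold change 0.64 ± 0.11, adjusted p = 4.62e-04), with no overlap. *Xbp1* had 329.7, 341 and 344 CPM against 387, 345 and 295 CPM and was not called.

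NRF2 and antioxidant genes were higher in 9 of 21 tested and lower in 1 (median 0.31; the lower count was 2 without unstimulated replicate b and IFN-γ + *E. coli* replicate 3). The metallothionein gene *Mt1* rose from 162, 168 and 208 to 340.3, 556 and 613 CPM (log2 fold change 1.49 ± 0.19, adjusted p = 1.99e-05). *Gclc*, the first enzyme of glutathione synthesis, had 103, 129.7 and 123 CPM with IFN-γ alone and 230.1, 228 and 204 CPM with both stimuli (log2 fold change 0.90 ± 0.14, adjusted p = 2.45e-04). *Txnrd1*, thioredoxin reductase, had 365, 372 and 468 CPM with IFN-γ alone and 596, 598 and 761 CPM with both stimuli (log2 fold change 0.70 ± 0.13, adjusted p = 0.00179). Each was higher in every library with *E. coli*. The list of heat shock and handling stress genes was higher in 5 of 10 tested (median 0.40; the higher count was 3 without IFN-γ replicates 1 and 2 and IFN-γ + *E. coli* replicate 1) and lower in 0, with 0 lower by DESeq2 and at unadjusted p under 0.05. Summed CPM of that list were 1323, 1386 and 1395 with IFN-γ alone and 1897, 1935 and 1798 with both stimuli. *Hspa1b*, near-identical to *Hspa1a*, had 16.2, 16.4 and 28.8 CPM with IFN-γ alone and 32.1, 46.6 and 56.7 CPM with both stimuli (log2 fold change 1.17 ± 0.26, adjusted p = 0.00581), and whether handling of the cells contributed was not tested.

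The list of BCL2 family and death receptor genes also holds other genes, among them the PIM kinases, caspases, gasdermins and inflammasome genes. It had 9 of 37 tested higher and 3 lower (median 0.11). The lower count was 1 without IFN-γ + *E. coli* replicate 1. *Pim2* (ENSMUSG00000031155, chrX:7878262-7883432, GRCm38), a kinase that protects cells from death, had 54.3, 53.8 and 56.2 CPM with IFN-γ alone and 397, 372 and 367 CPM with both stimuli (log2 fold change 2.79 ± 0.11, adjusted p = 1.25e-11). *Bcl2l1*, the survival gene BCL-XL, had 50.9, 32.3 and 37.3 CPM with IFN-γ alone and 90.6, 98.1 and 83.1 CPM with both stimuli (log2 fold change 1.18 ± 0.15, adjusted p = 3.08e-05). Both were higher in all libraries with *E. coli*. *Nlrp3*, the inflammasome sensor, rose from 22.9, 22.04 and 26.2 to 41.6, 72.9 and 114 CPM (log2 fold change 1.69 ± 0.32, adjusted p = 0.00170). *Fas*, the death receptor, rose from 34.7, 28.2 and 41.2 to 61.3, 71.8 and 76.5 CPM (log2 fold change 1.02 ± 0.15, adjusted p = 1.81e-04). *Mcl1* had 1649, 1581 and 1997 CPM against 1811, 1628 and 1922 CPM and was not called.

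Survival and cytokine receptor genes were higher in 3 and lower in 1 of 25 tested (median -0.04); the higher count was 0 without IFN-γ replicates 1 and 2 and IFN-γ + *E. coli* replicate 3, 1 without IFN-γ + *E. coli* replicate 1, and the lower count 3 without IFN-γ + *E. coli* replicate 3. *Il5ra*, the receptor chain through which IL-5 sustains eosinophils, had 151, 123 and 143 CPM with IFN-γ alone and 78.1, 86.02 and 58.03 CPM with both stimuli (log2 fold change -0.90 ± 0.15, adjusted p = 4.30e-04), lower in all libraries with *E. coli*. *Ifngr1*, a chain of the IFN-γ receptor, had 110.3, 95.3 and 131 CPM against 86.9, 59.2 and 99.6 CPM and was not called, though it was without IFN-γ + *E. coli* replicate 3 (-0.65).

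Eosinophil granule and identity genes leaned downwards, 3 of 21 tested higher and 7 lower (median -0.15). *Siglecf* (ENSMUSG00000039013, chr7:43351341-43359531, GRCm38) fell with *E. coli* (log2 fold change -0.85 ± 0.12, adjusted p = 1.31e-04), each of its libraries with both stimuli below each with IFN-γ. *Siglecg*, which has a near-identical copy, had 113, 107 and 90.2 CPM with IFN-γ alone and 55.5, 59.7 and 49.5 CPM with both stimuli (log2 fold change -0.91 ± 0.13, adjusted p = 1.39e-04). *Itgax*, the integrin CD11c, had 277, 274 and 297 CPM with IFN-γ alone and 178, 143 and 191 CPM with both stimuli (log2 fold change -0.73 ± 0.13, adjusted p = 7.24e-04), and *Tgfbi*, a matrix protein, fell from 49.3, 51.3 and 54.3 to 27.8, 15.9 and 19.8 CPM (log2 fold change -1.31 ± 0.21, adjusted p = 3.52e-04). These genes too were lower in every library with *E. coli*. In the opposite direction, the ribonuclease gene *Ear6* rose from 20.2, 19.5 and 16.3 to 50.4, 57.5 and 46.2 CPM (log2 fold change 1.46 ± 0.19, adjusted p = 3.55e-05) and the transcription factor gene *Gata2* from 32.5, 29.2 and 31.4 to 56.97, 45.5 and 59.4 CPM (log2 fold change 0.79 ± 0.17, adjusted p = 0.00474). *Car4*, a carbonic anhydrase, was not called (47.02, 59.5 and 63.4 CPM against 41.6, 52.6 and 37.6 CPM), nor was *Cebpe* (307, 317 and 248 CPM against 259, 245 and 232 CPM).

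Adhesion and matrix genes were higher in 9 and lower in 8 of 33 tested (median 0.11; the lower count was 5 without IFN-γ + *E. coli* replicate 2). *Mmp8*, neutrophil collagenase, had 31.3, 46.1 and 36.6 CPM with IFN-γ alone and 207, 210.4 and 194 CPM with both stimuli (log2 fold change 2.41 ± 0.14, adjusted p = 1.08e-09). *Plaur*, the urokinase receptor, rose from 163, 178 and 178 to 401, 432 and 363 CPM (log2 fold change 1.21 ± 0.11, adjusted p = 2.65e-07). The libraries with *E. coli* were higher in both genes, without overlap. *Itga4*, the α4 integrin opposite *Cerkl* exons, had 402, 428 and 439 CPM with IFN-γ alone and 207, 170.4 and 168 CPM with both stimuli (log2 fold change -1.22 ± 0.13, adjusted p = 2.71e-06), lower in every library with *E. coli*, and its partner *Itgb7* fell from 443, 362 and 471 to 277, 210.4 and 279 CPM (log2 fold change -0.74 ± 0.14, adjusted p = 0.00121).

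Lysosome and autophagy genes had 1 higher and 1 lower of 29 tested (median -0.06). This was 3.45% in each direction, against 6.25% and 5.98% of all genes tested. The higher count was 2 without unstimulated replicates b and c and *E. coli* replicates 1 and 3. The lower count was 2 without *E. coli* replicate 3, IFN-γ replicate 3 and IFN-γ + *E. coli* replicate 3. *Sqstm1*, the autophagy receptor p62 opposite *Mrnip*, rose from 968, 861 and 912 to 1434, 1301 and 1541 CPM (log2 fold change 0.64 ± 0.12, adjusted p = 0.00120), and *Lipa*, lysosomal acid lipase, fell from 409, 365 and 396 to 213, 221 and 254 CPM (log2 fold change -0.77 ± 0.12, adjusted p = 2.55e-04). Of 81 cytosolic ribosomal protein genes 0 were higher and 1 lower (median -0.04), with 0 higher by DESeq2 or at unadjusted p under 0.05. Their higher count was 1 without IFN-γ + *E. coli* replicate 1, and the lower count 0 without *E. coli* replicates 1 and 2, IFN-γ replicates 1, 2 and 3 and IFN-γ + *E. coli* replicates 1 and 2, 2 without unstimulated replicate b, 5 without IFN-γ + *E. coli* replicate 3. Cell cycle genes had 0 of 8 called in either direction by edgeR and DESeq2, with 1 higher and 0 lower at unadjusted p under 0.05 (median 0.40).

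The genes with the largest falls had varied roles, and they too were taken only from genes whose libraries did not overlap. *Clec12a* (ENSMUSG00000053063, chr6:129342691-129365303, GRCm38), an inhibitory lectin receptor for uric acid crystals, had 50.9, 32.8 and 28.8 CPM with IFN-γ alone and 4.38, 4.93 and 6.59 CPM with both stimuli (log2 fold change -2.81 ± 0.33, adjusted p = 1.03e-05). All 3 libraries with *E. coli* were lower, and the difference was 7.03-fold. The keratin gene *Krt80* and the antisense gene *Gm35853* overlap on opposite strands, so their counts cannot be separated with certainty. *Krt80* had 30.2, 25.6 and 28.8 CPM with IFN-γ alone and 5.84, 1.64 and 6.59 CPM with both stimuli (log2 fold change -2.63 ± 0.38, adjusted p = 1.15e-04), and *Gm35853* 26.9, 31.8 and 18.96 CPM with IFN-γ alone and 2.19, 3.84 and 3.30 CPM with both stimuli (log2 fold change -3.02 ± 0.32, adjusted p = 2.82e-06). *Adgrg5*, an adhesion GPCR of eosinophils, had 12.3, 10.8 and 8.50 CPM with IFN-γ alone and 0.730, 1.64 and 2.64 CPM with both stimuli (log2 fold change -2.60 ± 0.47, adjusted p = 9.72e-04). These genes were lower in every library with *E. coli*. *Itga2*, a collagen integrin, fell from 10.1, 10.3 and 10.5 to 1.46, 2.74 and 0.659 CPM (log2 fold change -2.55 ± 0.48, adjusted p = 0.00149), and without IFN-γ + *E. coli* replicate 2 its value was -3.23.

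*Slco4a1*, an organic anion transporter, had 25.7, 18.97 and 24.2 CPM with IFN-γ alone and 6.57, 4.38 and 5.28 CPM with both stimuli (log2 fold change -2.09 ± 0.26, adjusted p = 2.00e-05). *Nxpe4*, a gene without a well-defined role, had 30.2, 29.7 and 31.4 CPM with IFN-γ alone and 7.30, 6.57 and 8.57 CPM with both stimuli (log2 fold change -2.02 ± 0.21, adjusted p = 2.03e-06). The libraries of the 2 groups did not overlap in either gene, and *E. coli* gave the lower values. *Dapk2*, a kinase that promotes granulocyte death, fell from 12.9, 8.20 and 9.81 to 3.65, 2.74 and 1.32 CPM (log2 fold change -1.98 ± 0.43, adjusted p = 0.00419), and *Mylk3*, a myosin kinase, fell to 6.57, 2.19 and 3.30 CPM (log2 fold change -1.94 ± 0.37, adjusted p = 0.00161). *Pla2g3*, a secreted phospholipase opposite *Inpp5j*, had 19.03, 10.3 and 14.4 CPM with IFN-γ alone and 4.38, 3.29 and 3.30 CPM with both stimuli (log2 fold change -1.98 ± 0.36, adjusted p = 0.00103). *Fam3b*, a secreted cytokine-like protein, had 25.7, 24.6 and 27.5 CPM with IFN-γ alone and 9.49, 3.29 and 7.91 CPM with both stimuli (log2 fold change -1.95 ± 0.29, adjusted p = 1.39e-04). Both were lower in every library with both stimuli. *Smpd3*, a neutral sphingomyelinase opposite *Prmt7*, fell from 11.2, 11.8 and 10.5 to 2.92, 1.64 and 3.96 CPM (log2 fold change -1.99 ± 0.47, adjusted p = 0.00796), but without IFN-γ + *E. coli* replicate 2 it was not called (-1.68). The uncharacterised genes *Gm47926* (log2 fold change -2.33 ± 0.38, adjusted p = 3.38e-04) and *A530010L16Rik* (log2 fold change -1.94 ± 0.41, adjusted p = 0.00398) completed the 15, with 2.92, 2.74 and 2.64 CPM and 1.46, 2.19 and 3.96 CPM with both stimuli.

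A separate set of 6 libraries shows what *E. coli* did without IFN-γ. Against unstimulated cells 1337 genes rose (13.5%) and 1649 fell (16.7%). Of the 618 genes higher with *E. coli* in the presence of IFN-γ, 417 (67.5%) were also higher without it, 17 were lower and 184 were not called, and these 417 were 31.2% of the 1337. Of the 591 lower genes 387 (65.5%) were lower without IFN-γ too, 12 were higher and 192 were not called, and the 387 were 23.5% of the 1649. Log2 fold changes of the 618 had a median of 0.75 with IFN-γ and 0.71 without, and those of the 591 -0.76 and -0.65. These genes were selected by their change with IFN-γ, which favours larger values there, so the medians are not like measures. Both of the shared sets contained genes already named: *Pim2* rose by 2.79 with IFN-γ and 2.59 without, *Irak3* by 2.25 and 2.48, and *Clec12a* changed by -2.81 and -3.76. Leaving out each of the 12 libraries in turn gave 945 to 1625 higher and 1215 to 1767 lower genes in the *E. coli* comparison.

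**Figure D3:**
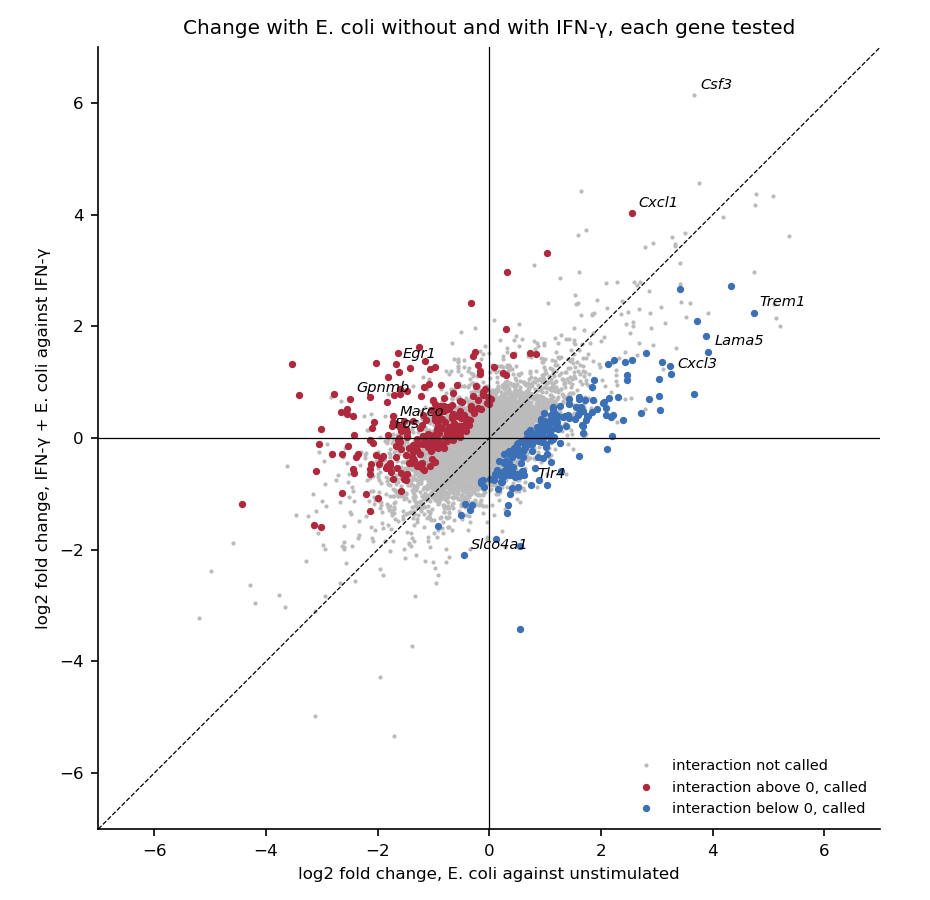
Log2 fold change with *E. coli* without IFN-γ (x axis) and with it (y axis) for 9883 genes, with genes whose 2 changes differed in the interaction test in red (above 0) and blue (below 0); each point is 1 gene. The coloured genes number 255 and 202.

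Whether *E. coli* acted differently with IFN-γ was tested as an interaction, the log2 fold change with IFN-γ minus that without it. It was above 0 for 255 genes (2.58%) and below 0 for 202 (2.04%). The first count was 154 without unstimulated replicate a, 158 and 138 without *E. coli* replicates 1 and 2, and 161 without IFN-γ replicate 2. The second was 112 without unstimulated replicate a, 128 and 132 without *E. coli* replicates 1 and 2, and 120 without IFN-γ + *E. coli* replicate 2. DESeq2 gave 244 and 203. Of the 255 genes, 219 were lower with *E. coli* alone, and of the 202, 166 were higher. The NF-kB letters occurred in 51 of 184 promoters of the former (27.7%) and 37 of 166 of the latter (22.3%). The share was 20.03% over all genes tested, so a raised share was not particular to genes higher with *E. coli*. Of the 27 AP-1, EGR and stress factor genes the interaction was above 0 for 4 and below 0 for 4 (median -0.02), the second count being 1 without unstimulated replicate a, *E. coli* replicate 1 and IFN-γ + *E. coli* replicate 2, 2 without unstimulated replicate c, *E. coli* replicate 3, IFN-γ replicates 1, 2 and 3 and IFN-γ + *E. coli* replicate 1. *Egr2* was among those below 0 (interaction -1.42 ± 0.24, adjusted p = 0.00167). In *Egr1* *E. coli* lowered the level from 142, 116 and 123 to 50.6, 35.4 and 34.1 CPM without IFN-γ and raised it with IFN-γ (interaction 2.98 ± 0.23, adjusted p = 7.07e-07). *Fos* had 96.5, 73.5 and 101 CPM in unstimulated cells and 30.6, 19.1 and 29.1 CPM with *E. coli*, and its interaction was 1.87 ± 0.27, adjusted p = 4.66e-04. *Junb*, the AP-1 partner of FOS opposite *Prdx2*, fell with *E. coli* alone (-0.52) and rose with IFN-γ present (0.48; interaction 1.00 ± 0.15, adjusted p = 7.72e-04). Markers of other cells moved in the same libraries. B cell markers summed to 341, 339 and 209 CPM in unstimulated cells and 63.6, 79.6 and 138 CPM with *E. coli* alone, where 6 of 8 were lower, and their interaction was above 0 for 6 (median 2.47). Macrophage and monocyte markers summed to 4514, 5176 and 4535 CPM and 3193, 2856 and 4556 CPM. Of the 18 tested 6 were lower with *E. coli* alone and 2 had an interaction above 0 (median 0.73), but 11 and 9 without *E. coli* replicate 3. The part of these cells in the interactions was not tested.

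*Gpnmb*, a glycoprotein of phagocytes, went from 76.01, 64.6 and 90.4 to 11.8, 11.4 and 19.3 CPM with *E. coli* alone, while with IFN-γ the values were 71.1, 69.2 and 65.4 CPM against 81.1, 112 and 142 CPM (interaction 3.19 ± 0.29, adjusted p = 3.68e-06). *Marco*, a scavenger receptor for bacteria and 1 of the macrophage markers, had 165, 162 and 160.2 and 46.1, 37.4 and 66.7 CPM without IFN-γ and 339, 318 and 346 CPM against 321, 435 and 469 CPM with it (interaction 2.01 ± 0.23, adjusted p = 5.61e-05).

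Interactions of IFN-γ target genes were also mostly above 0 where they were called. Without IFN-γ, *E. coli* lowered 21 of the 37 and raised 3 (median -0.69), and the interaction was above 0 for 13, below 0 for 1 (2 without unstimulated replicate c) and not called for 23. *Psmb9*, an immunoproteasome subunit opposite *Tap1*, fell from 193, 219 and 194 to 77.5, 66.2 and 96.8 CPM with *E. coli* alone (interaction 1.13 ± 0.17, adjusted p = 7.19e-04). *Stat2* fell from 217, 205 and 209 to 108, 109.7 and 109 CPM (interaction 1.05 ± 0.16, adjusted p = 6.14e-04). With IFN-γ the levels of these 2 genes were higher, and adding *E. coli* then gave no call. Of the type I interferon-stimulated genes 26 of 35 fell with *E. coli* alone and 0 rose, and the interaction was above 0 for 16 and below 0 for 0, with the same zeros by DESeq2 and at unadjusted p under 0.05. The count of 16 was 8 without *E. coli* replicates 1 and 2 and IFN-γ replicate 1, 10 without unstimulated replicate c and IFN-γ replicate 2. A count over 2048 in the libraries with IFN-γ was reached by 9 of the 37 IFN-γ target genes and 5 of the 35 type I genes. The ceiling therefore limits a comparison of their changes with and without IFN-γ.

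The opposite pattern, a lower log2 fold change when IFN-γ was present (interaction below 0), was seen in other genes. Of the 202 genes below 0, 44 were called higher with *E. coli* in the presence of IFN-γ, 46 lower, and 112 were not called. *Trem1* went from 7.08, 10.1 and 8.26 to 215, 228 and 219 CPM with *E. coli* alone, a log2 fold change of 4.73, against 2.24 with IFN-γ (interaction -2.49 ± 0.22, adjusted p = 3.68e-06). *Cxcl3* had 124, 106 and 152 CPM in unstimulated cells and 1161, 1114 and 1380.0 CPM with *E. coli*, and IFN-γ alone gave 933, 1057 and 1177 CPM (interaction -2.10 ± 0.20, adjusted p = 4.56e-06). With *E. coli* alone its counts reached 3331, so the ceiling limits a comparison of these levels, and the interaction was -1.96 after the correction. *Tlr4* rose with *E. coli* alone, from 23.5, 22.2 and 28.1 to 41.2, 39.1 and 44.9 CPM, and fell with IFN-γ (interaction -1.58 ± 0.25, adjusted p = 7.92e-04). *Hdc* (interaction -1.29 ± 0.22, adjusted p = 0.00167) and *Slc7a11* (interaction -1.34 ± 0.19, adjusted p = 4.66e-04) rose under both conditions, by less with IFN-γ. *Socs1* had 450.5, 574 and 503 and 862, 843 and 892 CPM without IFN-γ (interaction -0.81 ± 0.17, adjusted p = 0.0102).

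Some genes of glycolysis and hypoxia had the same pattern. *E. coli* alone raised 13 of 23 glycolysis genes and 12 of 21 hypoxia-inducible genes, and the interaction was below 0 for 6 and 7 members. The glycolysis count was 3 without unstimulated replicate a, *E. coli* replicate 1 and IFN-γ + *E. coli* replicate 2. For 2 hypoxia-inducible genes the interaction was above 0, and this count was 1 without unstimulated replicates a and b, *E. coli* replicate 1, IFN-γ replicate 1 and IFN-γ + *E. coli* replicates 1 and 2. *Tpi1*, a glycolytic enzyme with a near-identical copy and exons opposite *Spsb2*, had 131, 199 and 162 and 489.9, 496 and 589 CPM without IFN-γ against 1139, 1276 and 1418 CPM against 1530.1, 1393 and 1555 CPM with it (interaction -1.46 ± 0.20, adjusted p = 2.48e-04). *Fam162a*, a hypoxia-inducible gene opposite *Wdr5b*, had 21.98, 29.8 and 24.8 and 93.01, 109 and 130.3 CPM, against 329, 469.5 and 519 CPM against 624, 782 and 764 CPM (interaction -1.41 ± 0.25, adjusted p = 0.00254). In both genes the levels with IFN-γ alone were above those with *E. coli* alone. A count over 2048 in the libraries with IFN-γ was reached by 10 glycolysis genes, *Tpi1* among them, and 2 hypoxia-inducible genes. The ceiling therefore limits a comparison of their rises with and without IFN-γ.

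**Figure D4:**
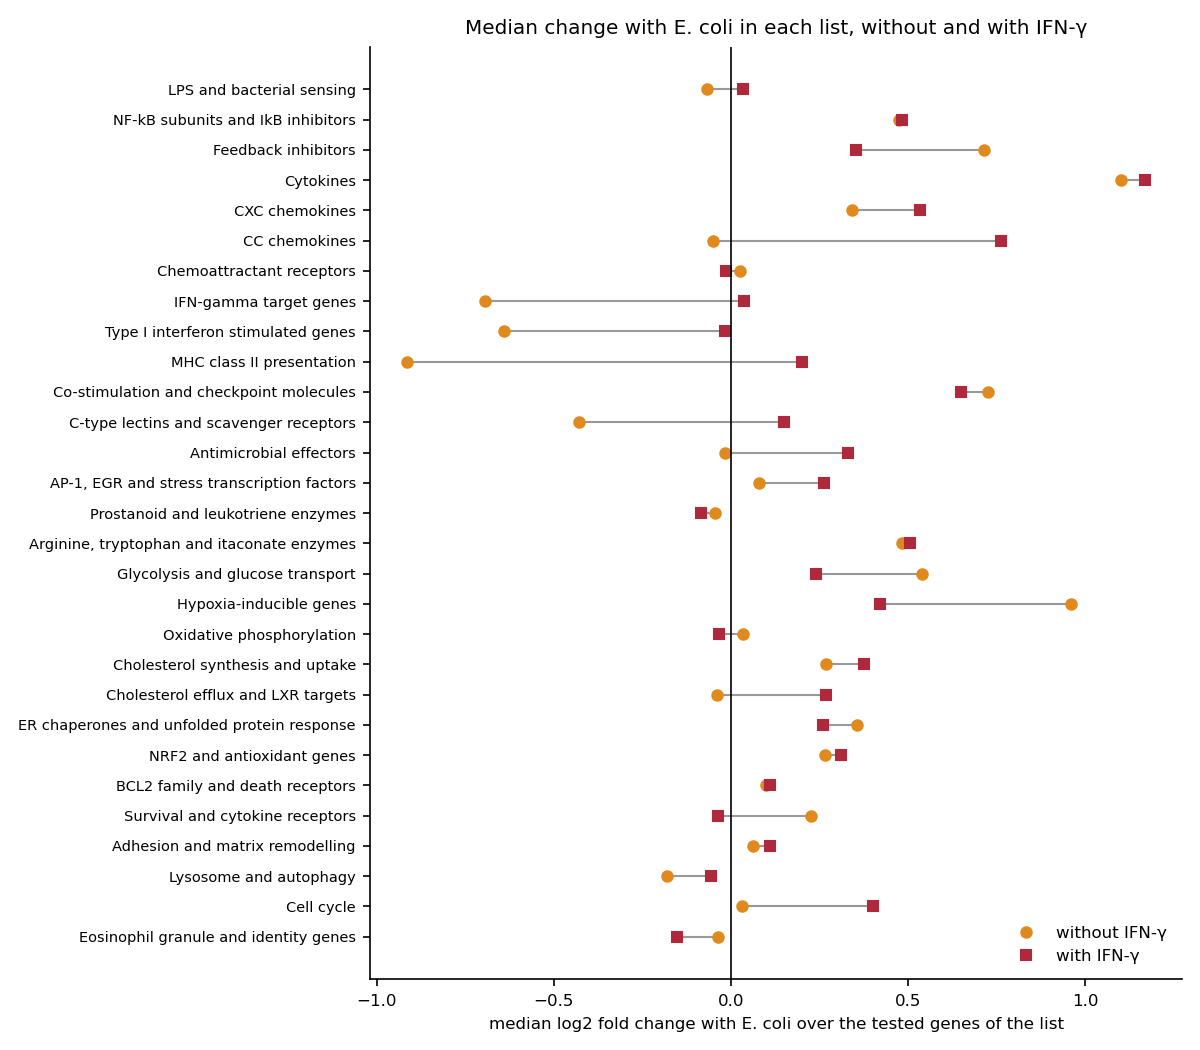
Median log2 fold change with *E. coli* of each list without IFN-γ (orange circles) and with it (red squares); each pair of points is 1 list. For IFN-γ target genes the medians were -0.69 and 0.04.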

How the data were processed

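RNA was measured by CEL-Seq2, and per the labels and the methods the authors counted reads on genes; the deposited values are raw counts per gene from HTSeq. Whether reads with the same molecular barcode were merged is not stated. The submitters' notes name fastp 0.20.1, STAR 2.7.2a, TopHat2 2.1.0 and HTSeq 0.6.1. The 5 summary lines at the end of each file were dropped, among them reads in no gene (18.9% to 32.8% in the 6 libraries compared). The unstimulated libraries d to f and the IL-4 libraries were not used here.

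The 12 libraries of 4 groups (unstimulated a to c, *E. coli*, IFN-γ, and IFN-γ + *E. coli*) were fitted in 1 model in R 4.3.3 with edgeR 4.0.16 (filterByExpr, TMM scaling, quasi-likelihood test, Benjamini-Hochberg adjustment over all genes tested). Of 55029 genes 9883 passed the filter, and 98.4% had a symbol in GENCODE release M21 (GRCm38). Contrasts were IFN-γ + *E. coli* against IFN-γ, *E. coli* against unstimulated, and the difference of these (interaction), each called at adjusted p under 0.05. Standard errors were taken from the fold change and its F value and are approximate. The dispersion corresponds to a coefficient of variation of 0.118 between replicates. The code was tested on simulated data.

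Genes were named by rule: the 15 largest rises and 15 largest falls among called genes whose libraries did not overlap and whose higher group averaged at least 10 CPM, the 10 largest interactions in each direction, members of 39 gene lists, and genes the study names. *Hamp*, *Myd88* and other members of the lists were chosen after their values were seen. Members and lists were chosen with earlier results of these data known, and lists are described by counts and medians without a test. Where a group had 1 to 3 counts in total in the comparison of IFN-γ + *E. coli* with IFN-γ, a ratio with its 95% counting interval is given. Near-identical copies share at least 95% over 200 bases. Alternatives were DESeq2 1.42.0, DESeq2 size factors, other filters, a factor of 2, fewer libraries, the replicate number as a block, a correction for the count ceiling and a covariate. Samples were read as independent, and the strand used in counting is not known. Some genes tested are not reported here.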

Additional observations from a re-analysis of the deposited data

Results flagged for a closer look

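Genes were flagged here because the effect of *E. coli* with IFN-γ differed from its effect without IFN-γ in the interaction test, at an adjusted p under 0.05 over all genes tested. The test was above 0 for 255 genes and below 0 for 202. Values are the differences of log2 fold changes, for the 10 largest in each direction and for further genes named in the report.

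Above 0 were *Gpnmb* (3.19), *Egr1* (2.98), *Gm31520* (3.25), *Cd79b* (2.92), *Cd93* (2.89) and *Fanca* (2.95, with exons opposite *Zfp276*). The value of *Spic* was 3.58 with no call in DESeq2, and its value without *E. coli* replicate 3 (4.65) differed. *Ramp3*, with an unnamed antisense gene, had 3.18, and other values without *E. coli* replicate 2 (2.46) and *E. coli* replicate 3 (4.12). *Calhm6* had 3.12, and another value without *E. coli* replicate 3 (3.78). *Abca2* had 2.83 and was not called without IFN-γ + *E. coli* replicate 1 (2.61). Also above 0 were *Marco* (2.01), *Fos* (1.87), *Psmb9* (1.13), *Stat2* (1.05) and *Junb* (1.00). *Cd79b* is a B cell marker and *Marco* a macrophage marker. The interaction was above 0 for 6 of 8 B cell markers and 2 of 18 macrophage and monocyte markers, 9 without *E. coli* replicate 3, and the part of these cells in the interactions was not tested.

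Below 0 were *Tiam1* (-2.88), *Trem1* (-2.49), *Gpr183* (-2.47), *Lama5* (-2.38), *Ankrd37* (-2.29), *Il1r2* (-2.29) and *Egln3* (-2.25). *Ltb4r2* had -3.96, with 1 count over the 3 libraries with both stimuli (a 13.4-fold lower level than with IFN-γ alone, 95% counting interval 2.06 to 565), and another value without IFN-γ + *E. coli* replicate 2 (-6.12). *S100a8* had -2.55 and was not called without unstimulated replicate a (-2.35). *Grm6*, with an unnamed antisense gene, had -2.16 and was not called by DESeq2 nor without unstimulated replicate a (-2.05), unstimulated replicate c (-2.25), *E. coli* replicate 1 (-2.21), *E. coli* replicate 2 (-2.16), IFN-γ replicate 1 (-2.23), IFN-γ replicate 2 (-1.97), IFN-γ replicate 3 (-2.29), IFN-γ + *E. coli* replicate 1 (-1.81) and IFN-γ + *E. coli* replicate 2 (-2.45). Further values below 0 were those of *Cxcl3* (-2.10), *Tlr4* (-1.58), *Tpi1* (-1.46), *Fam162a* (-1.41), *Slc7a11* (-1.34), *Hdc* (-1.29) and *Socs1* (-0.81).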

How the results depend on the processing

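The 618 higher and 591 lower genes became 624 and 576 with DESeq2 size factors, 535 and 480 with the DESeq2 test, 594 and 644 without a filter, 494 and 551 with at least 10 counts in every library, 218 and 186 with a factor of 2, and 447 and 493 in a fit of the 6 libraries. Leaving out 1 library gave 374 to 638 higher and 336 to 612 lower genes, where 374 and 366 came without IFN-γ replicate 1 and 336 without IFN-γ + *E. coli* replicate 2. With the replicate block the counts were 677 and 741 in 6 libraries and 740 and 690 in 9. Replicate numbers did not pair consistently. Correlations between same-number libraries with IFN-γ alone and with both stimuli were -0.0450, 0.212 and 0.331. Between *E. coli* alone and both stimuli they were 0.0706, 0.0986 and 0.163. Not every library correlated best with its own number. IFN-γ replicate 1 did so with number 3 (0.0229), IFN-γ replicate 2 with number 1 (0.266) and *E. coli* replicate 2 with number 1 (0.197).

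The 255 and 202 interactions became 244 and 203 with DESeq2, 157 and 88 with a factor of 2, and 316 below 0 without a filter; leaving out 1 library gave 138 to 355 and 112 to 276. On leaving out 1 library, the values that moved by more than a factor of 1.5 were 154, 158, 138 and 161 above 0, and 112, 128, 132 and 120 below 0. *E. coli* against unstimulated gave 350 higher and 673 lower genes with a factor of 2 and 945 to 1625 and 1215 to 1767 on leaving out 1 library.

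The correction for the ceiling and the share of reads in no gene as a covariate were added after seeing the data. They gave 647 and 623, and 816 and 765, genes higher and lower. Interactions above and below 0 numbered 284 and 238 after the correction, and 380 and 311 with the covariate. After the correction 2 of the most abundant genes changed sign, *Ly6c2* from 0.02 to -0.63 with *E. coli* added to IFN-γ, and the interaction of *Csf2rb* from 0.10 to -0.82. The cause of these differences was not tested. Of the 50 genes named for the largest rises, falls and interactions, 40 were called in IFN-γ + *E. coli* against IFN-γ, 38 of them also by DESeq2, and 35 in every fit leaving out 1 library.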
